A study of Homo sapiens with 18 samples.

Results

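The unfolded protein response (UPR) is the set of signals that the endoplasmic reticulum (ER) sends when unfolded proteins, or a disturbed membrane, load it. The 10 genes described here encode its sensors and the factors that carry their signals: ERN1, EIF2AK3, ATF6, ATF6B, XBP1, ATF4, DDIT3, EIF2S1, PPP1R15A and PPP1R15B. They were chosen by name, as the rows of the expression table whose Ensembl identifiers map to these symbols. All 10 were found among 60483 genes listed, and all 10 were among the 13789 genes with a mean of at least 1 TPM that entered the tests.

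RNA sequencing was performed on OVCAR5 cells, an established human ovarian cancer line that the labels describe as wild type and of high grade serous origin, in 18 samples. Every sample, controls included, spent 24 h in medium with free fatty acid-free albumin before RNA was extracted. There were 6 conditions of 3 samples each: DMSO, 1 µM CAY10566, 50 µM stearate with DMSO, 50 µM stearate with 1 µM CAY10566, 50 µM oleate with DMSO, and 50 µM oleate with 1 µM CAY10566. Stearoyl-CoA desaturase (SCD) turns the saturated acid stearate into monounsaturated oleate. CAY10566 is an inhibitor of that enzyme, and DMSO is its solvent. The comparisons ask how each fatty acid, with and without the inhibitor, changes transcript levels.

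In this response 3 membrane proteins watch the lumen of the ER. IRE1 (ERN1) is a kinase and nuclease that removes a short intron from XBP1 mRNA in the cytoplasm, so that the transcription factor XBP1s can be made. PERK (EIF2AK3) phosphorylates eIF2α (EIF2S1), which lowers protein synthesis in general while ATF4 mRNA is translated more. ATF4 then induces CHOP (DDIT3), a factor tied to cell death under lasting stress, and GADD34 (PPP1R15A), which together with CReP (PPP1R15B) directs a phosphatase to eIF2α and restores translation. ATF6 and its paralogue ATF6B travel to the Golgi, where they are cut to release a transcription factor. Much of this signalling lies in phosphorylation, splicing and cleavage, none of which a gene-level RNA measurement records.

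Both sequences below belong to XBP1, the member at which the arms meet: the first shows a DNA element for ATF6 and the second the RNA that IRE1 cuts. The XBP1 gene lies on the minus strand of chromosome 22, at 28794555 to 28800597 of GRCh38. The promoter stretch, chr22:28800598-28800689 of GRCh38.p14, ends just upstream of the annotated gene. Its capitals mark an ER stress response element, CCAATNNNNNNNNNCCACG, the motif bound by ATF6 together with the CCAAT-binding factor NF-Y.

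XBP1 promoter: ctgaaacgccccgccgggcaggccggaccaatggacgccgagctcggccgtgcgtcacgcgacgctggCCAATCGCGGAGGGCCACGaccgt

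XBP1 intron: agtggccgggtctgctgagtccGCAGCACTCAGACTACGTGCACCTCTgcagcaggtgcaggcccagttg

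The second stretch is chr22:28796106-28796175, in coding exon 4. Its capitals mark the 26-base intron at chr22:28796128-28796153, as GENCODE 44 places it. Without those bases the reading frame shifts, and the annotated coding sequence has 376 codons instead of 261. TPM was deposited per gene, over all of the 6 annotated transcripts of XBP1, so the values below add spliced and unspliced mRNA and do not measure the activity of IRE1.

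The capitals of the promoter span bases −52 to −34 from the RefSeq start. The same element, on either strand, was present in 27 of 35116 RefSeq promoter windows of 300 bases (0.0769%), and among the members in that of XBP1 alone. No member's window held the other motifs searched on both strands: the second form of the element (ERSE-II, ATTGG and CCACG parted by a single base), present in 0.0541% of windows, the UPRE core TGACGTGG, present in 0.729%, or the C/EBP-ATF element TGATGNAAT, present in 0.991%. The absence of these letters from a window of this length says nothing about the binding of a factor.

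Expression is given as TPM, a gene's length-corrected share of all transcripts, scaled to a common total. TPM keeps no record of the number of reads, so the depth of the samples is unknown and their precision is seen only in the spread between replicates. Differences were calculated on the log2(TPM + 1) scale, which slightly understates the change of genes with low values. A gene was called higher or lower by limma with Benjamini-Hochberg adjustment over all 13789 genes at an adjusted p under 0.05. The study also asked for a rise of at least 25% or the matching fall, and calls that meet both are given apart. The study describes each treatment as run in triplicate, and refers to independent in vitro experiments in general terms. The labels do not say that replicates came from separate cultures, so p-values measure the spread between these samples, which may be technical. In bulk RNA a changed number of cells of one kind cannot be told apart from a changed amount of RNA per cell.

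Across genes, samples of a condition correlated at 0.982 to 0.987 and samples of different conditions at 0.978 to 0.987, and no pair of samples was identical. Of 9 epithelial markers, 7 had a mean of at least 1 TPM. They were led by KRT8 at 895, KRT18 at 774, KRT7 at 426, KRT19 at 362 and EPCAM at 331. Among the serous markers in that list PAX8 was at 11.8, whereas WT1, at 0.126, and MUC16, at 0.632, were near 0. Of 10 markers of other cells, CD68, at 94.5, and COL1A1, at 5.04, reached that level, while PTPRC, CD3E, VWF, COL1A2, COL3A1 and LUM were all at or below 0.0861. The epithelial markers summed to 3004 to 3145 TPM in control samples, 2420 to 2613 with stearate and 2741 to 3058 with oleate, and the markers of other cells to 89.01 to 117.6, 88.04 to 96.04 and 102.1 to 121.2. The part of these markers in the results was not tested. One sample stood apart from its group: CAY10566 replicate 3 had a median-of-ratios size factor of 1.024, against 0.942 to 0.969 in the other 5 control samples, 0.977 to 1.051 with stearate and 0.997 to 1.067 with oleate. Transcripts of SCD itself ranged from 166.94 to 185.45 TPM with DMSO and from 174.41 to 207.15 with CAY10566. With stearate they ranged from 131.24 to 169.95 TPM in DMSO samples and from 188.36 to 206.39 in CAY10566 samples, and with oleate from 99.89 to 106.81 and from 113.87 to 128.42. The settings did not overlap with either acid. Non-overlap in either direction was found for 11.6% of all genes with stearate and 9.88% with oleate. For CAY10566 against DMSO with oleate, 0% of all genes were called, so SCD was not called there. CAY10566 acts on the enzyme, so transcript levels are no direct check of the inhibition.

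The members were expressed at very different levels in control samples. ATF4 had the highest mean, 527 TPM ± 17.1 (SD, n = 6). It was followed by PPP1R15A at 399 ± 7.30, EIF2S1 at 265 ± 23.0, XBP1 at 162.6 ± 3.84 and DDIT3 at 139 ± 8.15. The membrane sensors and CReP came far below, with ATF6B at 47.3 ± 2.42, PPP1R15B at 32.8 ± 2.7, ERN1 at 16.2 ± 2.58, ATF6 at 10.5 ± 1.06 and EIF2AK3 at 9.77 ± 1.31. Only the last pair, ATF6 and EIF2AK3, overlapped as neighbours in this order. ATF4, DDIT3, XBP1 and GADD34 were thus well above the sensors that signal to them. The coefficient of variation over control samples ran from 1.83% for PPP1R15A to 16% for ERN1, and was 3.24% for ATF4 and 13.4% for EIF2AK3.

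**Figure D1:**
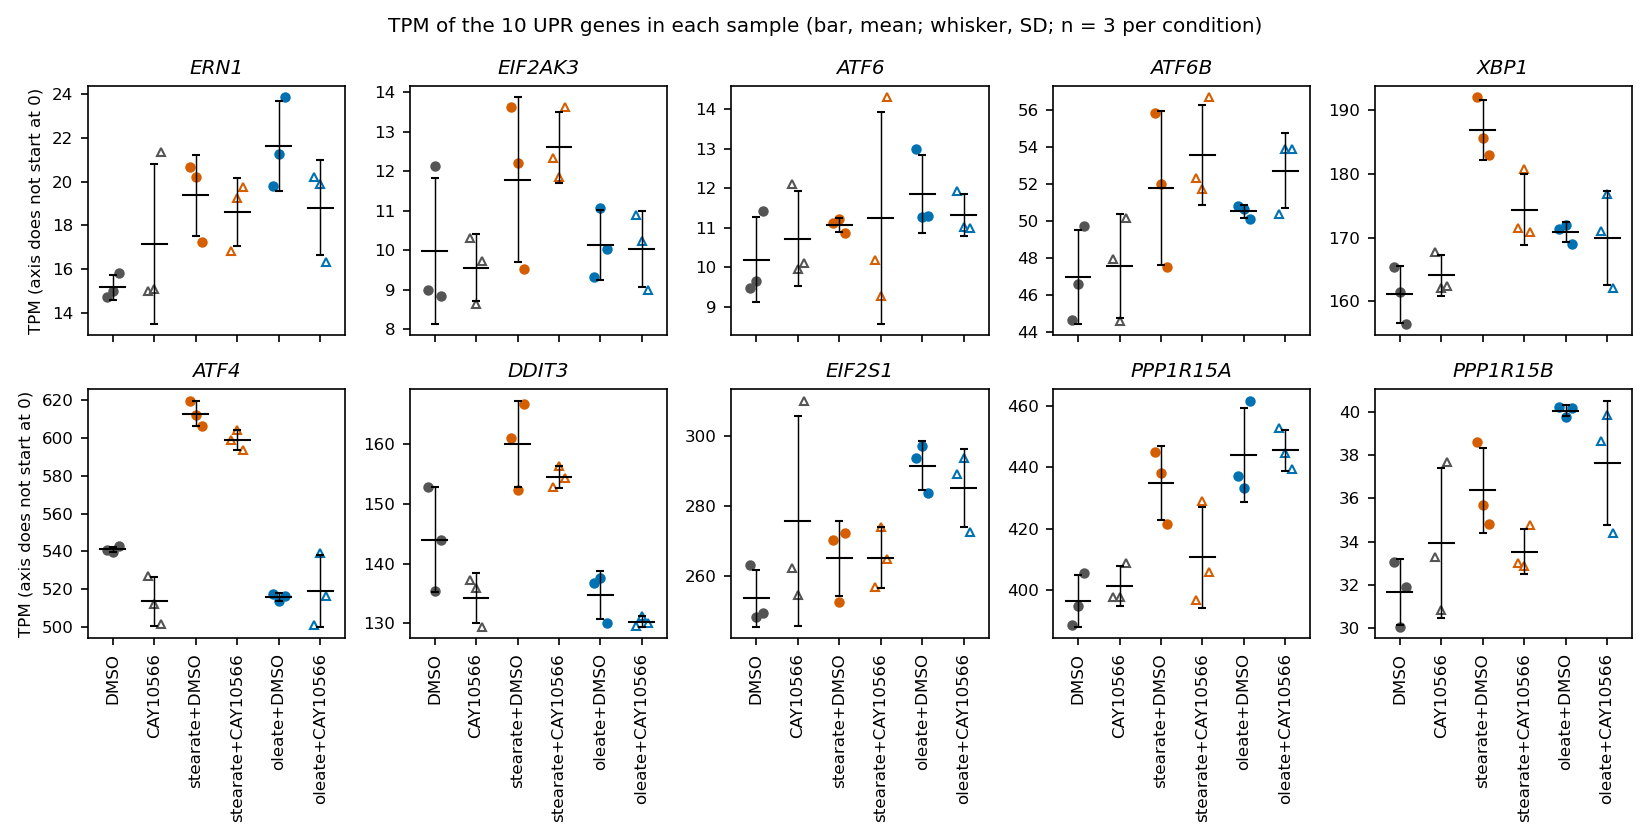
TPM of each member (vertical axes, not starting at 0) in the 3 samples of each of the 6 conditions; filled circles are samples with DMSO, open triangles samples with CAY10566, grey control, orange stearate and blue oleate, with the mean and SD in black. All 6 stearate samples of ATF4, at 593.61 to 619.44 TPM, lie above the other 12, while PPP1R15A and PPP1R15B have their highest means with oleate.

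The contrast between the saturated and the monounsaturated acid was clearest in ATF4 and DDIT3. Both factors were higher with stearate than with oleate in every pair of samples, ATF4 by 1.17-fold and DDIT3 by 1.19-fold, while XBP1, EIF2S1 and the phosphatase partners did not pass the test. EIF2AK3 was the third member called.

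For ATF4, the main translationally controlled factor of the PERK arm, stearate with DMSO gave 619.44, 612.00 and 606.24 TPM and stearate with CAY10566 gave 598.55, 604.23 and 593.61. Oleate with DMSO gave 517.68, 513.90 and 516.67 TPM, and oleate with CAY10566 gave 501.42, 539.06 and 516.69. The lowest stearate sample thus exceeded the highest oleate sample. Of these 4 sets, oleate with DMSO had the smallest spread and oleate with CAY10566 the largest. The difference was 0.227 on the log2 scale (SE 0.023; 95% confidence interval 0.179 to 0.274; adjusted p = 7.86e-07, limma with Benjamini-Hochberg adjustment).

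DDIT3, which encodes the pro-apoptotic factor CHOP, was at 161.04, 152.31 and 166.69 TPM in stearate with DMSO and at 152.78, 156.40 and 154.40 in stearate with CAY10566. It was at 136.69, 137.53 and 130.11 TPM in oleate with DMSO and at 129.52, 131.30 and 130.03 in oleate with CAY10566. Again no sample of one acid reached the range of the other. The difference was 0.245 (SE 0.035; adjusted p = 6.46e-05, limma with Benjamini-Hochberg adjustment).

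EIF2AK3, encoding PERK, had 9.52, 12.275 and 13.62 TPM as its lowest, median and highest value with stearate, and 8.98, 10.13 and 11.07 with oleate. These ranges overlapped. The difference of 0.246 (SE 0.085) passed narrowly, at an adjusted p of 0.0465 in limma with Benjamini-Hochberg adjustment. The call was lost without any 1 of 12 of the 18 samples, with adjusted p between 0.0504 and 0.0976: DMSO replicate 1 or 3, CAY10566 replicate 1, stearate+DMSO replicate 1 or 2, any stearate+CAY10566 sample, oleate+DMSO replicate 1 or 3, or oleate+CAY10566 replicate 2 or 3. It was also lost in the model of 6 conditions (adjusted p = 0.0637) and without a filter on TPM (0.103, limma with Benjamini-Hochberg adjustment). Samples of the control group count here because all 18 share 1 estimate of the spread.

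Of the 10 members, 3 were called higher with stearate than with oleate and 0 lower, and 7 had an unadjusted p under 0.05, as had 34% of all genes. Over all genes tested, 21.1% were called in either direction and 6.85% higher. Values did not overlap between the acids for ATF4 and DDIT3, as for 10.2% of all genes. The median difference of the 10 members was −0.02, against −0.03 for all genes. None of the members met the size limit of 25% as well, which 6.37% of all genes did. Without CAY10566 replicate 3, a control sample, 6 members were called, since EIF2S1 (adjusted p = 0.00306), PPP1R15A (0.0486) and PPP1R15B (0.0244) then passed as lower with stearate in limma with Benjamini-Hochberg adjustment; 25% of all genes were called in that fit.

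Against control cells, stearate raised 6 members, each by less than 25%. Limma called 6 of the 10 higher and 0 lower: ATF4, DDIT3, XBP1, EIF2AK3, ATF6B and PPP1R15A. Division by size factors left ATF4, XBP1 and EIF2AK3 called. ERN1, ATF6, EIF2S1 and PPP1R15B were not called. Over all genes, 19.4% were called, 13.5% as higher, and the median difference was 0.15 for the members and 0.06 for all genes.

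ATF4 in control cells was at 540.85, 539.87 and 542.70 TPM with DMSO and at 527.20, 512.19 and 501.66 with CAY10566. Every one of these lay below the lowest stearate sample. The difference was 0.20 (SE 0.023), a 1.15-fold level, with an adjusted p of 7.64e-06 in limma with Benjamini-Hochberg adjustment.

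XBP1 was at 165.43, 161.44 and 156.51 TPM in control cells with DMSO and at 167.81, 162.10 and 162.46 with CAY10566. It was at 191.95, 185.60 and 182.90 TPM in stearate with DMSO and at 171.50, 180.72 and 170.90 in stearate with CAY10566. The groups did not overlap, and the stearate samples with DMSO were all above those with CAY10566. XBP1 rose by 0.149 (SE 0.030; adjusted p = 0.00195, limma with Benjamini-Hochberg adjustment). Non-overlap was found for 2 of the 10 members, ATF4 and XBP1, and for 7.79% of all genes.

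DDIT3 was at 152.84, 135.38 and 143.87 TPM in control cells with DMSO and at 137.32, 135.93 and 129.44 with CAY10566. Only the highest control sample reached into the stearate range, which began at 152.31. DDIT3 rose by 0.18 (SE 0.035; adjusted p = 0.00193, limma with Benjamini-Hochberg adjustment).

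EIF2AK3 had 8.65, 9.355 and 12.12 TPM as its lowest, median and highest control value, so that its range overlapped that with stearate, and its difference was 0.29 (SE 0.085; adjusted p = 0.0219, limma with Benjamini-Hochberg adjustment). Its call was lost without DMSO replicate 3 (adjusted p = 0.0515), CAY10566 replicate 2 (0.0544), stearate+DMSO replicate 1 (0.0556) or stearate+CAY10566 replicate 3 (0.0522), and without a filter on TPM (0.0519). ATF6B, the less studied paralogue of ATF6, ran from 44.56 to 50.15 TPM in control cells, with a median of 47.255, and from 47.52 to 56.68 with stearate, with a median of 52.145. Its difference was 0.15 (SE 0.043; adjusted p = 0.0173, limma with Benjamini-Hochberg adjustment), on overlapping ranges.

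PPP1R15A, whose product reverses the phosphorylation of eIF2α, ran from 388.77 to 408.99 TPM in control cells, with a median of 397.68, and from 396.91 to 445.11 with stearate, with a median of 425.375. The difference of 0.083 (SE 0.027) had an adjusted p of 0.0368 in limma with Benjamini-Hochberg adjustment. It did not pass without any 1 of 8 samples, at adjusted p of 0.0541 to 0.093: DMSO replicate 1 or 2, CAY10566 replicate 1 or 2, any stearate+DMSO sample, or stearate+CAY10566 replicate 2. Nor did it pass without a filter on TPM (adjusted p = 0.0705) or without a trend (0.0822) in limma with Benjamini-Hochberg adjustment. With the replicate number as a block its adjusted p was 0.0501 in limma with Benjamini-Hochberg adjustment.

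ERN1 was at 14.72, 14.98 and 15.81 TPM in control cells with DMSO and at 15.01, 15.07 and 21.37 with CAY10566, the last value being that of CAY10566 replicate 3. It was at 20.65, 20.21 and 17.26 TPM in stearate with DMSO and at 16.83, 19.24 and 19.76 in stearate with CAY10566. All stearate samples were thus above 5 of the 6 control samples. With every sample ERN1 was not called, at 0.23 (SE 0.089; adjusted p = 0.0776), and without CAY10566 replicate 3 it was, at 0.31 (adjusted p = 0.00516, limma with Benjamini-Hochberg adjustment), which brought the members called to 7 and the share of all genes called to 26.8%.

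The remaining members were not called with stearate. ATF6 differed by 0.080 (95% confidence interval −0.088 to 0.248) and EIF2S1, the subunit that PERK phosphorylates, by 0.006 (−0.084 to 0.096). PPP1R15B, the constitutive partner of the phosphatase, differed by 0.091 (−0.02 to 0.20). Past both the adjusted p and the size limit were 5.35% of all genes and none of the members.

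Oleate was compared with the same control samples as stearate. Limma called 5 of the 10 higher and 0 lower: PPP1R15A, PPP1R15B, ERN1, ATF6B and EIF2S1, with a median over the members of 0.126. Division by size factors changed this to 2 higher, ERN1 and PPP1R15B, and 2 lower, ATF4 and DDIT3. ATF6B and PPP1R15A had also been called with stearate. The other three, ERN1 (adjusted p = 0.556), EIF2S1 (0.0528) and PPP1R15B (0.0564), were not called between the acids by limma with Benjamini-Hochberg adjustment. ATF4 and DDIT3 were not called with oleate. A larger share of all genes was called with oleate, 25.7% in all and 23.0% as higher, with a median over all genes of 0.087, so a count of 5 of 10 stands against a high background.

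PPP1R15A was at 437.26, 433.18 and 461.76 TPM in oleate with DMSO and at 452.83, 444.59 and 439.54 in oleate with CAY10566. All 6 were above every control sample, and 4.06% of all genes had no overlap in either direction. The difference was 0.157 (SE 0.027; adjusted p = 0.00176), but after size factors it was 0.054 (adjusted p = 0.179, limma with Benjamini-Hochberg adjustment).

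PPP1R15B was at 33.06, 30.05 and 31.89 TPM in control cells with DMSO and at 33.30, 30.83 and 37.69 with CAY10566. It was at 40.22, 39.75 and 40.16 TPM in oleate with DMSO and at 38.66, 39.87 and 34.41 in oleate with CAY10566. The ranges overlapped through 1 control and 1 oleate sample, both of them replicate 3 with CAY10566. PPP1R15B rose by 0.24 (SE 0.054; adjusted p = 0.00492, limma with Benjamini-Hochberg adjustment).

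ERN1 was at 19.81, 21.25 and 23.86 TPM in oleate with DMSO and at 20.23, 19.90 and 16.31 in oleate with CAY10566. The difference from control was 0.31 (SE 0.089; adjusted p = 0.0168, limma with Benjamini-Hochberg adjustment). Between the acids ERN1 differed by −0.082 (95% confidence interval −0.268 to 0.104), and that difference was not called.

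EIF2S1 was at 263.12, 248.43 and 249.56 TPM in control cells with DMSO and at 262.45, 254.71 and 310.02 with CAY10566. With oleate its lowest, median and highest values were 272.74, 291.425 and 297.04 TPM. The highest of all 18 samples was thus a control sample, CAY10566 replicate 3. The call for EIF2S1, 0.13 (SE 0.043; adjusted p = 0.0370), was lost without any 1 of 10 samples, at adjusted p of 0.0539 to 0.0921 in limma with Benjamini-Hochberg adjustment: any DMSO sample, CAY10566 replicate 1 or 2, any oleate+DMSO sample, or oleate+CAY10566 replicate 1 or 2. It was also lost without a filter on TPM (adjusted p = 0.0882) and without a trend (0.0601, limma with Benjamini-Hochberg adjustment).

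ATF6B ran from 50.11 to 53.89 TPM with oleate, with a median of 50.715, and differed from control by 0.125 (SE 0.043; adjusted p = 0.0371, limma with Benjamini-Hochberg adjustment). This call was lost without any 1 of 7 samples, at adjusted p of 0.051 to 0.0872: DMSO replicate 1 or 2, CAY10566 replicate 1 or 2, oleate+DMSO replicate 2, or oleate+CAY10566 replicate 2 or 3. It was also lost without a filter on TPM (adjusted p = 0.0696, limma with Benjamini-Hochberg adjustment). Leaving out DMSO replicate 1 or 2, CAY10566 replicate 1 or 2, oleate+DMSO replicate 2 or oleate+CAY10566 replicate 2 each left 3 members called, with 17.7% to 21.9% of all genes. ATF4 differed by −0.027 (SE 0.023) and DDIT3 by −0.068 (SE 0.035), neither past the test. With oleate 6.90% of all genes, and none of the members, met the size limit as well.

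**Figure D2:**
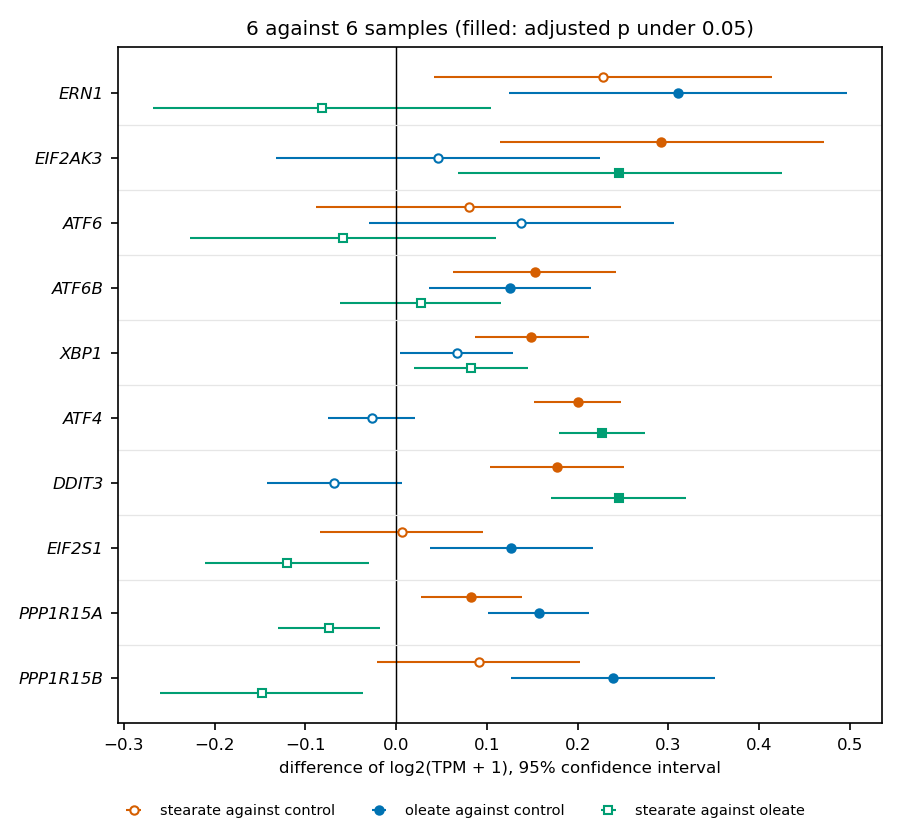
Difference of log2(TPM + 1) for each member (points; bars, 95% confidence intervals) between groups of 6 samples, for stearate against control (orange), oleate against control (blue) and stearate against oleate (green squares); filled symbols have an adjusted p under 0.05. ATF4 and DDIT3 lie right of 0 with stearate and at −0.027 and −0.068 with oleate, whereas PPP1R15B lies at 0.091 with stearate and 0.239 with oleate.

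How far these calls depend on the scale of the samples was measured by dividing each sample by its size factor. TPM fixes only the total, and the median of all genes lay 0.06 above control with stearate and 0.087 above with oleate. Size factors lowered these medians by 0.055 and 0.091. After them, 3 members were called higher with stearate than in control, namely ATF4 at 0.139 (adjusted p = 0.00648), XBP1 at 0.089 (0.0437) and EIF2AK3 at 0.24 (0.047), all in limma with Benjamini-Hochberg adjustment. DDIT3 (0.117, adjusted p = 0.0673), ATF6B (0.093, 0.113) and PPP1R15A (0.022, 0.62) were no longer called by limma with Benjamini-Hochberg adjustment. After scaling, 18% of all genes were called, and 43.1% of those were higher with stearate, against 69.3% as deposited.

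For oleate the same step replaced 5 higher and 0 lower members by 2 higher and 2 lower. ERN1 at 0.213 (adjusted p = 0.0479) and PPP1R15B at 0.139 (0.018) stayed higher, while ATF4 at −0.13 (0.0128) and DDIT3 at −0.17 (0.012) were called lower by limma with Benjamini-Hochberg adjustment. PPP1R15A at 0.054, EIF2S1 at 0.024 and ATF6B at 0.024 lost their calls. After scaling, 18.3% of all genes were called, and 48.6% of those were higher, against 89.5% as deposited.

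Between the acids, scaling took the median over all genes from −0.032 to 0.0054. ATF4, DDIT3 and EIF2AK3 stayed higher with stearate after scaling, at 0.27, 0.287 and 0.28, and XBP1 joined them at 0.125 (adjusted p = 0.00553, limma with Benjamini-Hochberg adjustment). After scaling, 21.9% of all genes were called, and 47.9% of those were higher with stearate, against 32.5% as deposited.

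**Figure D3:**
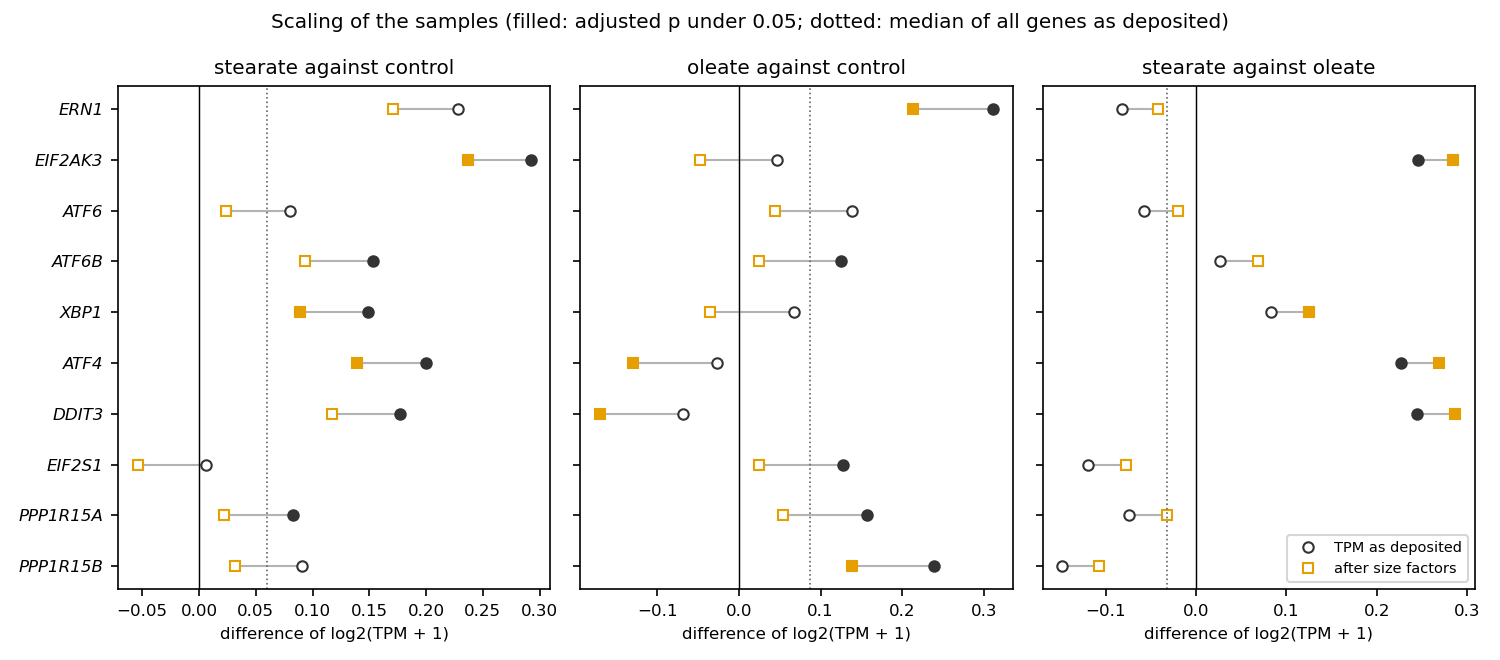
Difference of log2(TPM + 1) for each member in the 3 fatty acid comparisons from TPM as deposited (dark circles) and after median-of-ratios size factors (yellow squares); filled symbols have an adjusted p under 0.05 and dotted lines are the median of all genes as deposited. In oleate against control, ATF4 and DDIT3 move from −0.027 and −0.068, not called, to −0.13 and −0.17, called; in stearate against oleate both are called either way.

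Over all 3 fatty acid groups, 9 samples with CAY10566 were compared with 9 without, with fatty acid in the model, and CAY10566 changed 0 members and 0% of all genes by limma with Benjamini-Hochberg adjustment. DDIT3 alone among the members had an unadjusted p under 0.05, with a difference of −0.066 (SE 0.025; adjusted p = 0.881). Over all genes 5.42% had such a p. The interval of DDIT3 ran from −0.118 to −0.013, that of ATF4 from −0.070 to 0.003, that of XBP1 from −0.077 to 0.024, that of PPP1R15A from −0.066 to 0.026 and that of EIF2S1 from −0.047 to 0.102.

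Within fatty acid groups, limma called 0 members in each of the comparisons of 3 against 3 samples. Without fatty acid 2 members had an unadjusted p under 0.05, ATF4 at −0.075 and DDIT3 at −0.10, as had 10.1% of all genes, and 0% of all genes were called. With stearate 2 had one, XBP1 at −0.099 (adjusted p = 0.821) and PPP1R15A at −0.083 (adjusted p = 0.873), and 0.0145% of all genes were called by limma with Benjamini-Hochberg adjustment, 5.52% having such an unadjusted p. With oleate 0 members and 4.72% of all genes had one, and 0% of all genes were called. With stearate, the CAY10566 values lay wholly below the DMSO values for 3 members, XBP1, ATF4 and PPP1R15B. Over all genes 11.6% had no overlap in either direction, 1194 genes lying wholly below and 402 wholly above. After size factors the differences of these 3 members were −0.063, 0.003 and −0.078, and 0 members were called.

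Without the inhibitor, in 3 samples against 3, stearate raised 4 members over control in limma with Benjamini-Hochberg adjustment: XBP1 by 0.21 (SE 0.037; adjusted p = 0.00248), ATF4 by 0.178 (SE 0.028; 0.00105), DDIT3 by 0.152 (SE 0.045; 0.0341) and PPP1R15A by 0.134 (SE 0.035; 0.0211). Over all genes 14.0% were called. With the inhibitor in both groups, stearate raised 2 members, ATF4 by 0.22 (SE 0.028; 0.000172) and DDIT3 by 0.20 (SE 0.045; 0.0149), where 4.75% of all genes were called. After size factors 0 members and 12.1% of all genes were called in the DMSO samples, where limma with Benjamini-Hochberg adjustment gave ATF4 0.087 (adjusted p = 0.192) and XBP1 0.122 (adjusted p = 0.0709). In the CAY10566 samples 1 was, ATF4 at 0.191 (adjusted p = 0.0144), and 5.42% of all genes were. The count in the DMSO samples was 2 without DMSO replicate 2 (5.09% of all genes called) or stearate+DMSO replicate 1 (5.19%), and 6 without CAY10566 replicate 3 (18.4%). In the DMSO samples DDIT3 was lost without any 1 of 4 samples (DMSO replicate 2 or 3, stearate+DMSO replicate 1 or 3). PPP1R15A was lost likewise without any 1 of 4 (DMSO replicate 1 or 2, stearate+DMSO replicate 1 or 2). DDIT3 was also lost without a filter on TPM, and both genes were lost without a trend. The count in the CAY10566 samples was 1 without stearate+CAY10566 replicate 2 (2.91%).

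Oleate with DMSO raised 4 members over DMSO alone in limma with Benjamini-Hochberg adjustment: ERN1 by 0.48 (SE 0.121; adjusted p = 0.0107), PPP1R15B by 0.33 (SE 0.070; 0.00543), EIF2S1 by 0.20 (SE 0.059; 0.0224) and PPP1R15A by 0.163 (SE 0.035; 0.00557). ERN1 and PPP1R15B also passed the size limit of 25%. After size factors ERN1, at 0.356 (adjusted p = 0.0208), and PPP1R15B, at 0.201 (adjusted p = 0.0132), were called higher, PPP1R15B now under the size limit, and ATF4, at −0.20 (adjusted p = 0.00656), and DDIT3, at −0.23 (adjusted p = 0.0148), lower by limma with Benjamini-Hochberg adjustment, with 20% of all genes called. As deposited, 24.2% of all genes were called, and 14.1% met the size limit as well. The call for ERN1 was lost without oleate+DMSO replicate 3 (15.4% of all genes called). That for EIF2S1 was lost without DMSO replicate 2 (12.4%) or 3 (17.6%), without oleate+DMSO replicate 1 (22.3%) or 2 (14.2%), and without a filter on TPM (7.7%). With CAY10566 in both groups 0 members were called by limma with Benjamini-Hochberg adjustment, 2 at an unadjusted p under 0.05, ATF6B at 0.147 (adjusted p = 0.331) and PPP1R15A at 0.15 (adjusted p = 0.106), beside 13.4% of all genes at such an unadjusted p, where 0.109% of all genes were called. Without CAY10566 replicate 3, which is in that control group, 1 member was, PPP1R15A, and the share of all genes was 5.03%.

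Between the acids, ATF4 and DDIT3 were called in both settings, and without any 1 of the 18 samples. In DMSO samples ATF4 was higher with stearate by 0.247 (adjusted p = 2.83e-05) and DDIT3 by 0.245 (adjusted p = 0.00256), and XBP1 was called as well, at 0.128 (adjusted p = 0.0436), by limma with Benjamini-Hochberg adjustment. In CAY10566 samples ATF4 was higher by 0.206 (adjusted p = 0.000178) and DDIT3 by 0.244 (adjusted p = 0.00268), and PPP1R15A was lower by this test of limma with Benjamini-Hochberg adjustment, at −0.118 (adjusted p = 0.0495). Over all genes 8.98% were called in DMSO samples and 7.66% in CAY10566 samples. The call for XBP1 was lost in 11 of 18 fits that left out 1 sample: DMSO replicate 1 or 2, CAY10566 replicate 2, any stearate+DMSO sample, stearate+CAY10566 replicate 1, any oleate+DMSO sample, or oleate+CAY10566 replicate 1. It was also lost without a filter on TPM and without a trend. PPP1R15A kept its call in only 4 of 18 such fits, those without oleate+DMSO replicate 3, CAY10566 replicate 3, stearate+CAY10566 replicate 2 or stearate+DMSO replicate 3, and lost it with the replicate block, without a trend and without a filter. After size factors ATF4 and DDIT3 were called in both settings, XBP1 in DMSO samples, and PPP1R15A in neither, with 9.57% of all genes called in DMSO samples and 8.62% in CAY10566 samples.

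**Figure D4:**
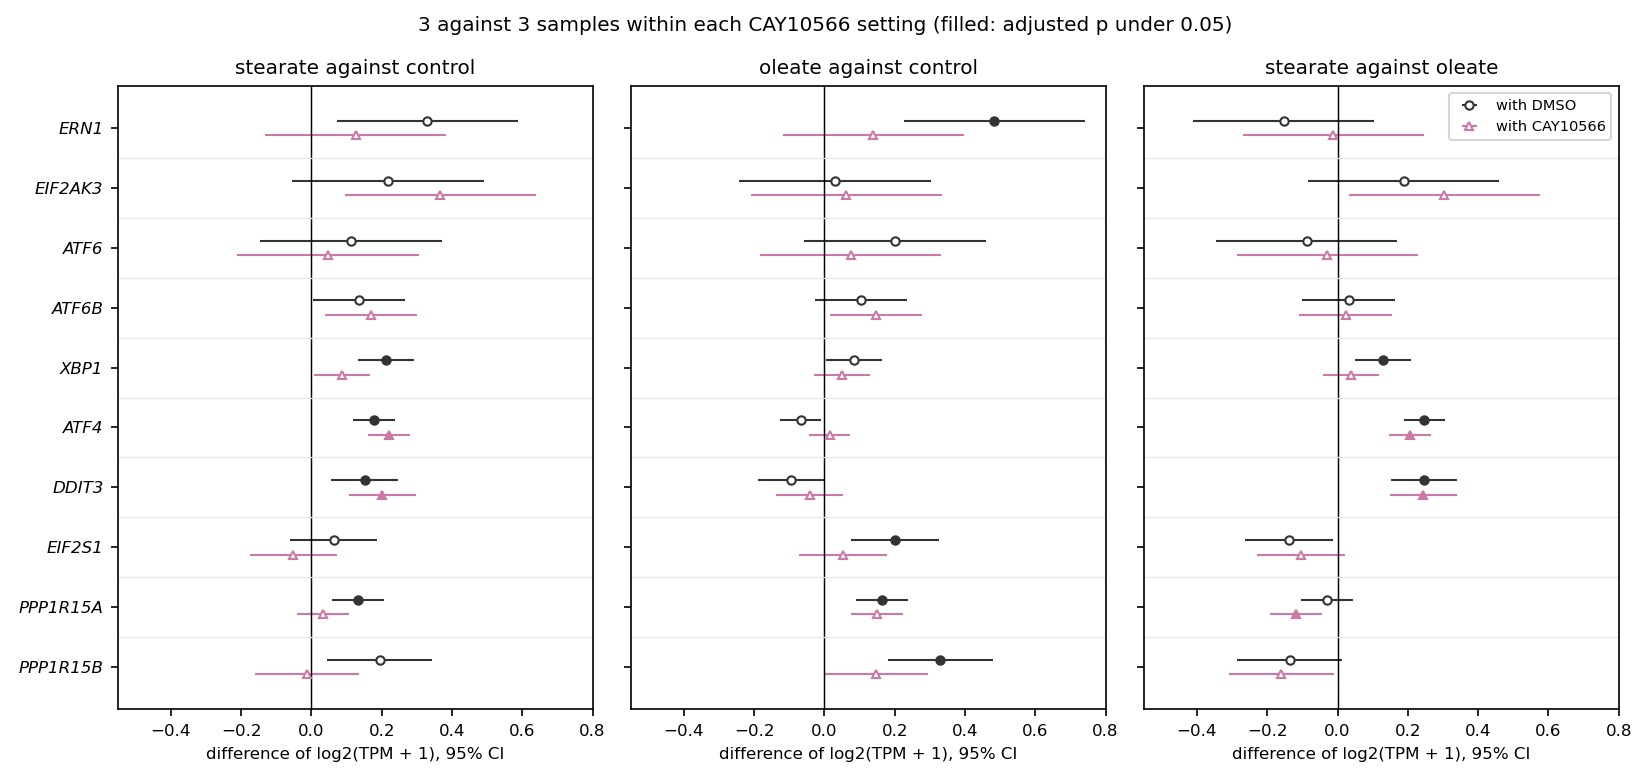
Difference of log2(TPM + 1) for each member (bars, 95% confidence intervals) between fatty acid groups of 3 samples each, in samples with DMSO (dark circles) and with CAY10566 (pink triangles); filled symbols have an adjusted p under 0.05. ATF4 and DDIT3 are called in both settings for stearate against control and against oleate, and the intervals of the settings overlap for every member.

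A difference between the settings was itself tested as an interaction, and limma with Benjamini-Hochberg adjustment called 0 members for any fatty acid comparison. For stearate against control 0.00725% of all genes were called. XBP1 was the only member with an unadjusted p under 0.05, as had 9.36% of all genes. Its rise was smaller with CAY10566 by 0.126 (95% confidence interval of the interaction −0.238 to −0.013, adjusted p = 0.514 in limma with Benjamini-Hochberg adjustment). The median of this interaction over all genes was −0.056. After size factors the interaction of XBP1 was −0.065, with an interval from −0.191 to 0.061. The interaction of ATF4 ran from −0.041 to 0.126 and that of DDIT3 from −0.083 to 0.184. For oleate against control 0% of all genes were called and 0 members, against 10.3% of all genes, had an unadjusted p under 0.05, although the interval of ERN1 was wide, from −0.708 to 0.021. For stearate against oleate the counts were likewise 0 members, 0 at an unadjusted p under 0.05, against 3.57% of all genes, and 0% of all genes called. The ATF4 interval there was −0.124 to 0.043 and that of DDIT3 −0.135 to 0.133.

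Genes downstream of the sensors were followed in lists written from knowledge of each arm, with earlier results of these data known. The 3 genes named from each list are those with the largest change with stearate at a mean TPM of at least 5. The list counts and the stearate p-values of these genes are therefore description, not independent support. In the PERK-ATF4-CHOP list 14 of 30 genes were called higher and 2 lower with stearate against control, 8 and 0 with oleate, and 8 and 3 between the acids. Over all genes 13.5%, 23.0% and 6.85% were called higher in these comparisons. The median difference of the list was 0.104 with stearate, 0.082 with oleate and 0.007 between the acids, against 0.06, 0.087 and −0.032 for all genes, so with oleate the list lay near the background. CHAC1, a glutathione-degrading enzyme induced by ATF4, was at a mean of 40.82 TPM with stearate, 28.78 in control and 27.20 with oleate. It rose by 0.49 with stearate (SE 0.052; adjusted p = 3.23e-06) and was 0.57 higher than with oleate (adjusted p = 2.45e-07, limma with Benjamini-Hochberg adjustment). ATF5, a factor of the same pathway, rose by 0.43 with stearate (SE 0.071; adjusted p = 0.000405, limma with Benjamini-Hochberg adjustment). NUPR1, a stress-induced chromatin protein, went the other way, from a mean of 11.62 TPM in control to 5.948 with stearate, a fall of 0.88 (SE 0.205; adjusted p = 0.00567, limma with Benjamini-Hochberg adjustment) on overlapping ranges. After size factors the list had 10 higher and 4 lower with stearate, 3 and 3 with oleate, and 9 and 2 between the acids. Over all genes the shares then called in either direction were 18%, 18.3% and 21.9%. Of those called, 43.1%, 48.6% and 47.9% were higher. With oleate CHAC1 was then called lower, at −0.17 (adjusted p = 0.0324, limma with Benjamini-Hochberg adjustment).

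In the IRE1-XBP1 list 12 of 26 genes were called higher and 0 lower with stearate, 7 and 1 with oleate, and 9 and 0 between the acids, beside the same 13.5%, 23.0% and 6.85% of all genes called higher. Its medians were 0.126, 0.068 and 0.063, against 0.06, 0.087 and −0.032 for all genes, and the oleate values were again close to the background. SEC24D, a cargo adaptor of the COPII coat, rose by 0.50 with stearate (SE 0.053; adjusted p = 3.64e-06) and was 0.43 higher than with oleate (adjusted p = 1.13e-05, limma with Benjamini-Hochberg adjustment). DNAJB9, an ER co-chaperone often used as a readout of spliced XBP1, rose by 0.33 (SE 0.115; adjusted p = 0.0474, limma with Benjamini-Hochberg adjustment). EDEM3, which trims mannose from misfolded glycoproteins, was called with oleate, at 0.47 (adjusted p = 0.0115), and not with stearate, at 0.33 (adjusted p = 0.0704), and the acids did not differ by the test, at −0.14 (adjusted p = 0.454, limma with Benjamini-Hochberg adjustment). After size factors the list had 6 higher and 0 lower with stearate, 2 and 4 with oleate, and 11 and 0 between the acids. Over all genes 18%, 18.3% and 21.9% were then called in either direction in these comparisons. Of those called, 43.1%, 48.6% and 47.9% were higher. The rise of DNAJB9 over control was then not called, at 0.279 (adjusted p = 0.0914, limma with Benjamini-Hochberg adjustment).

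Of 16 tested genes of the 17 in the ATF6 list, 12 were called higher and 0 lower with stearate, 8 and 0 with oleate, and 3 and 0 between the acids, where 13.5%, 23.0% and 6.85% of all genes were called higher. The medians were 0.20, 0.098 and 0.066, against 0.06, 0.087 and −0.032 for all genes, so the oleate median was close to that of all genes. HERPUD1, which recruits components of ER-associated degradation, rose by 0.34 with stearate (SE 0.031; adjusted p = 3.71e-07, limma with Benjamini-Hochberg adjustment). HSPA5, the chief ER chaperone BiP that holds the sensors inactive, was at a mean of 558.3 TPM with stearate, 458.3 in control and 477.5 with oleate, a rise of 0.285 with stearate (SE 0.036; adjusted p = 2.14e-05, limma with Benjamini-Hochberg adjustment). SEL1L, a scaffold of the same degradation pathway, was higher with either acid, by 0.31 with stearate (adjusted p = 0.0217) and 0.44 with oleate (adjusted p = 0.00334, limma with Benjamini-Hochberg adjustment). After size factors 8 were higher and 0 lower with stearate, 3 and 0 with oleate, and 6 and 0 between the acids. The shares of all genes then called in either direction were 18%, 18.3% and 21.9%. Of those called, 43.1%, 48.6% and 47.9% were higher. The ER stress response element printed above for XBP1 was found in the window of 5 of the 14 genes of this list that had one, in 2 of 23 of the IRE1-XBP1 list, and in 0 of 26 of the PERK-ATF4-CHOP list and 0 of 23 of the partners below.

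Among partners of the sensors and of eIF2, 26 of 28 genes were tested. With stearate 5 were called higher and 2 lower, with oleate 8 and 1, and between the acids 3 and 4, where 19.4%, 25.7% and 21.1% of all genes were called in either direction. The medians of 0.058, 0.099 and −0.036 were close to the 0.06, 0.087 and −0.032 of all genes. EIF2AK2, the eIF2α kinase that responds to double-stranded RNA, was higher with stearate by 0.29 (adjusted p = 0.0304) and with oleate by 0.32 (adjusted p = 0.015, limma with Benjamini-Hochberg adjustment). CREB3L2, a membrane-bound factor related to ATF6, was likewise higher with each, by 0.28 (adjusted p = 0.0158) and 0.26 (adjusted p = 0.02, limma with Benjamini-Hochberg adjustment). TRAF2, the adaptor that links IRE1 to JNK signalling, fell by 0.18 with stearate (adjusted p = 0.0162) and was 0.295 lower than with oleate (difference −0.295; adjusted p = 0.000285, limma with Benjamini-Hochberg adjustment). After size factors the partners had 2 higher and 3 lower with stearate, 2 and 4 with oleate, and 5 and 3 between the acids. In these comparisons 18%, 18.3% and 21.9% of all genes were then called in either direction. CREB3L2 was no longer called with oleate (0.168, adjusted p = 0.0823, limma with Benjamini-Hochberg adjustment).

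Within the 10 members, values of ATF4 and DDIT3 followed each other most closely over the 18 samples, with a Pearson r of 0.904 on log2(TPM + 1). The 6 stearate samples lay apart from the other 12 in ATF4, so the coefficient describes that separation together with the spread inside groups. ERN1 and PPP1R15B had an r of 0.849, and PPP1R15A and PPP1R15B one of 0.786. The lowest coefficient, −0.442, was that of ATF4 and EIF2S1. All samples were scaled to one total, which ties their values together.

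Among 10141 genes compared on the same 18 samples, the genes most like ATF4 were CHAC1 (r = 0.974), NQO1 (0.972) and RTN3 (0.961). Those most like DDIT3 were RAB32 (0.927), CHAC1 (0.922) and NQO1 (0.905). XBP1 was most like YIPF5 (0.916), OAT (0.906) and SESN2 (0.901). EIF2AK3, which is low and variable, had weaker neighbours, NUCB2 (0.86), MCCC1 (0.822) and SLC49A4 (0.795).

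**Figure D5:**
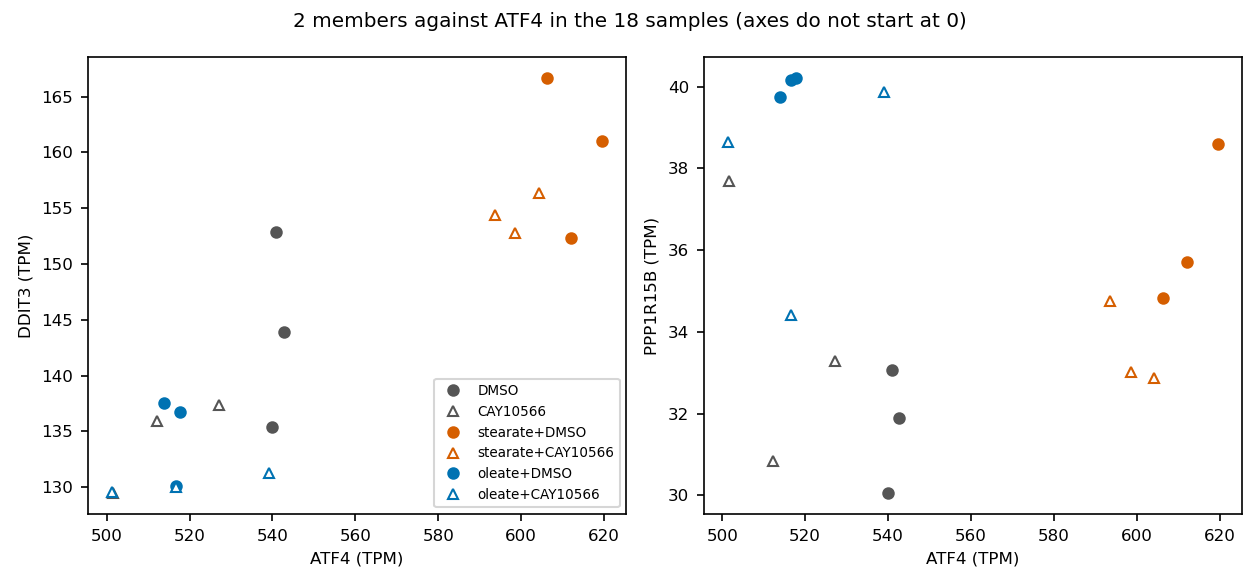
TPM of DDIT3 (left) and of PPP1R15B (right) against TPM of ATF4 in the 18 samples (axes do not start at 0); grey control, orange stearate, blue oleate, filled circles DMSO and open triangles CAY10566. The 6 stearate samples hold the highest ATF4 values, 593.61 TPM and above, and DDIT3 values of 152.31 and above, while 5 of the 6 oleate samples have PPP1R15B at 38.66 or above.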

How the data were processed

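RNA was extracted with a column kit and libraries were prepared with a stranded mRNA kit. The authors trimmed the reads with Trim Galore, aligned them to GRCh38 with STAR 2.7.1a and estimated expression with RSEM. The deposited table holds TPM per gene, which sums to between 999999.1 and 1000000.5 in each sample; depth is therefore unknown. A single line naming no gene was left out, and symbols were found for 56321 identifiers (93.1%).

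Limma 3.58.1 (R 4.3.3; lmFit and eBayes with a trend) was fitted to log2(TPM + 1) of all 18 samples for the 13789 genes whose mean reached 1 TPM. Fatty acid comparisons used 3 groups of 6 samples; CAY10566 was tested with fatty acid as a covariate; single conditions and interactions came from a model of 6 conditions. Calls used a false discovery rate of 0.05, with 1.25-fold given separately. The procedure was tested on simulated data. Alternatives were a pseudocount of 0.1, no filter, a mean TPM of at least 5, size factors, no trend, the replicate number as a block, the model of 6 conditions and each sample left out.

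All 10 members are named, with the 3 genes of each pathway list that had the largest change with stearate at a mean TPM of at least 5. Genes most alike were ranked by Pearson r. The members and lists were chosen with earlier results of these data known. Positions come from GENCODE 44, promoter windows (250 bases before to 50 after the start) from RefSeq GRCh38.p14. Python 3.11.15 with matplotlib 3.10.9 drew the figures.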

Additional observations from a re-analysis of the deposited data

Results flagged for a closer look

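In each fatty acid group of 6 samples, every member was checked for a lowest or highest sample far from the rest; chance marks about 1 in 20 of such groups, and 30 were checked. ERN1 in CAY10566 replicate 3 was at 21.37 TPM, while the other control samples lay between 14.72 and 15.81. EIF2S1 in the same sample was at 310.02 TPM, against 248.43 to 263.12 in the other control samples. PPP1R15B in oleate+CAY10566 replicate 3 was at 34.41 TPM, below the other oleate samples at 38.66 to 40.22. No cause was tested. No difference between the DMSO and CAY10566 settings passed the interaction test.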

How the results depend on the processing

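Without any 1 sample, 4 to 7 members were called for stearate against control and 3 to 5 for oleate against control. For stearate against oleate 2 to 6 were called. The share of all genes called ranged from 14.5% to 26.8%, 17.7% to 34.1% and 16.7% to 25% in these 3 comparisons. Stearate in the DMSO samples gave 2 to 6 members (5.09% to 18.4% of all genes). In the CAY10566 samples it gave 1 to 2 (2.66% to 4.9%). Oleate gave 3 to 4 (12.4% to 27.4%) and 0 to 1 (0.0507% to 5.03%) in these settings. The acids against each other gave 2 to 4 (4.5% to 11.9%) and 2 to 3 (4.15% to 9.98%). Where a fit leaves 2 samples in a condition, the spread is shared with the others. Size factors gave 3, 0 and 1 members for stearate in all, DMSO and CAY10566 samples. Without a filter oleate against control gave 3 (8.19% of all genes), with p-values adjusted over 30753 genes. For stearate against oleate, a mean TPM of at least 5 gave 6 (26.7%), 4 higher and 2 lower (EIF2S1, PPP1R15B), and the model of 6 conditions 5 (21.2%), 3 higher and 2 lower (PPP1R15A, PPP1R15B), without EIF2AK3 (adjusted p = 0.0637, limma with Benjamini-Hochberg adjustment). No trend gave 2 for stearate in the DMSO samples (12.6%), where the cause was not tested. Signs turned only in members that were not called. Size factors turned EIF2S1 with stearate to −0.054, and EIF2AK3 and XBP1 with oleate to −0.048 and −0.036. Leaving out samples took EIF2S1 with stearate from −0.011 to 0.053 and, for CAY10566, ERN1 from −0.092 to 0.005, EIF2AK3 from −0.032 to 0.056, ATF6 from −0.046 to 0.036 and EIF2S1 from −0.003 to 0.041. ATF4 and DDIT3 between the acids were called under all 25 alternatives, at 0.218 to 0.269 and 0.228 to 0.287.

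The labels do not say whether the replicate number pairs samples. Deviations of the 45 same-numbered pairs correlated at a median of 0.012 (−0.18 to 0.103). The 90 pairs of another number had a median of −0.011 (−0.124 to 0.171). Of 18 samples, 9 were most like their own number. These values neither show nor exclude pairing. With the replicate number as a block, 5 members were called for stearate against control (18.2% of all genes), 5 for oleate against control (24.2%) and 4 for stearate against oleate (20.2%); PPP1R15A with stearate had an adjusted p of 0.0501 and XBP1 between the acids one of 0.0492 in limma with Benjamini-Hochberg adjustment.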
